A study of Mus musculus with 24 samples.

Results

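The 5 Acsl genes, Acsl1, Acsl3, Acsl4, Acsl5 and Acsl6, which encode the long-chain acyl-CoA synthetases, were followed by H3K27ac in mouse liver. The members were all rows of the deposited region table whose annotated gene was 1 of these 5, which gave 41 of 63686 regions: 13 for Acsl1, 4 for Acsl3, 16 for Acsl4, 7 for Acsl5 and 1 for Acsl6. H3K27ac is the acetylation of lysine 27 of histone H3, a mark of active promoters and enhancers, and ChIP-seq counts the DNA fragments that carry it. Of the 41 regions 27 were intergenic and 14 intronic, and a region was tied to a gene as the nearest annotated start, which does not show that it acts on that gene. The labels describe male C57BL/6J mice of 9 weeks, all homozygous for a floxed Gata4 allele, 3 mice and 3 libraries in each of 4 groups. Knockout refed and knockout fasted mice had received AAV8-Tbg-Cre at 8 weeks of age, 7 days before death, and control refed and control fasted mice an AAV8 without Cre. Refed mice had 12 h of fasting and then 12 h with a high sucrose diet (69% sucrose, 10% fat), while fasted mice had the 12 h fast alone. All were killed at the same morning hour, so the fast fell in the day for refed mice and in the night for fasted mice. The Tbg promoter is active in hepatocytes, so the other liver cells keep Gata4.

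Long-chain acyl-CoA synthetases join a long-chain fatty acid to coenzyme A at the cost of ATP, the step that commits the fatty acid to oxidation or to the making of glycerolipids. In liver, ACSL1 is the main isoform of hepatocytes and its gene is a known target of PPAR alpha, a nuclear receptor active in fasting. ACSL5 is the other abundant liver isoform, ACSL3 sits on nascent lipid droplets, ACSL4 prefers arachidonic acid and feeds it into phospholipids, and ACSL6 is best known from brain. GATA4 is a zinc finger transcription factor that binds GATA motifs.

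Acsl1 has 2 annotated starts that lie 19.9 kb apart, and different feeding comparisons were called over each, so the DNA before both is shown, with that of Acsl5, whose start region had the smallest adjusted p of all member regions for feeding. The sequences are the 250 bases before each start on the + strand, from RefSeq on GRCm38.p6, a later build than the mm9 of the signal table, and capitals mark a match to a searched motif.
Acsl1 upstream start, chr8:46470787-46471036: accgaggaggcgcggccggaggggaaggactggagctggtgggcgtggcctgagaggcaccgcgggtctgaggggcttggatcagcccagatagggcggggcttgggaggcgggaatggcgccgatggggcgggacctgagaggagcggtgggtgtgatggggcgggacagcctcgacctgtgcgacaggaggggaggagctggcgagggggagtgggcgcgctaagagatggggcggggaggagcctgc
Acsl1 downstream start, chr8:46490716-46490965: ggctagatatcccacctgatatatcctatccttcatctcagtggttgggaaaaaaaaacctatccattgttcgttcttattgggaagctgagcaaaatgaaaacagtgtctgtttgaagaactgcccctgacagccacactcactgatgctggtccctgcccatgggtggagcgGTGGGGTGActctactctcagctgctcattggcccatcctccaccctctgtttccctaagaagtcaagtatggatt
Acsl5 start, chr19:55253119-55253368: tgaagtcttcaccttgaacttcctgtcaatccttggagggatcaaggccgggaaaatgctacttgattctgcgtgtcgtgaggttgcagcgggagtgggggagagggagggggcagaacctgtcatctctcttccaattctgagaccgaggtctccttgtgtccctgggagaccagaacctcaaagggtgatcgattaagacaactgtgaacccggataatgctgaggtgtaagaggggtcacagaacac
The stretch before the upstream Acsl1 start had 72.0% G and C, against 48.4% before the downstream start and 52.8% before Acsl5. Of these 3, the downstream Acsl1 sequence alone held a match, to the sterol regulatory element bound by SREBP (TCACNCCAC, read on the minus strand from base -76 to -68), which 1.24% of 32851 RefSeq promoter windows of 300 bases hold. All 8 windows of the 5 genes were searched on both strands. The GATA cores AGATAA (11.2% of windows) and TGATAA (9.05%) and the DR1 element AGGTCANAGGTCA of nuclear receptors (up to 2 mismatches, 3.86%) had no match in the 8. The DR4 element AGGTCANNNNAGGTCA, of the kind bound by LXR and also allowed 2 mismatches (3.02% of windows), had 1 with 2 mismatches before Acsl3 and 1 with 1 mismatch before Acsl6.

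Values below are the authors' deposited values per region, in which 1 read is worth 0.836 to 1.15, so that a value is close to a read count. Reads in regions per library ranged from 22336664 to 23613013 in knockout refed, from 27399600 to 30419424 in control refed, from 23098820 to 25297413 in knockout fasted and from 22150912 to 27795426 in control fasted livers. All 8 hepatocyte markers had regions. Of 8 lymphocyte markers 3 had regions, at 60.4 to 98.03 per kb. H3K27ac does not read out the floxed allele. The 7 regions annotated to Gata4 had 146 to 160.2 per kb in knockout refed and 140.2 to 152 in control refed livers, and 121 to 131 in knockout fasted and 115 to 123 in control fasted livers. Nothing in the labels says that mice of a group came from separate litters, so p-values measure the spread between these mice. In whole liver, fewer cells of a type and less signal per cell cannot be told apart.

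Summed over its regions and divided by their length, H3K27ac was highest at Acsl5 and Acsl1 and lowest at Acsl6. The means over 12 libraries were 185 per kb for Acsl5, 175 for Acsl1, 92.4 for Acsl4, 82.0 for Acsl3 and 46.3 for Acsl6, against 126 for the median of 16313 genes. They put Acsl5 and Acsl1 at percentiles 72.0 and 68.6 of all genes, Acsl4 and Acsl3 at 34.9 and 30.3, and Acsl6 at 8.51. The Acsl3 level covers upstream intergenic regions only. The region over the Acsl3 start is annotated to Utp14b, had a mean of 208 per kb and is outside this level. Acsl5 was above Acsl1 in refed livers of both genotypes and below it in fasted livers, and Acsl4 averaged above Acsl3 in all 4 groups with overlapping libraries, while every Acsl1 and Acsl5 library lay above every library of the other 3 genes. Acsl1 had 162 ± 4.71 per kb in knockout refed, 165 ± 18.0 in control refed, 209 ± 11.7 in knockout fasted and 161 ± 6.37 in control fasted livers (SD, n = 3 each, as below). Acsl5 had 199 ± 11.3, 235 ± 15.7, 168 ± 14.6 and 139 ± 2.57 per kb in the same 4 groups. The knockout fasted group was thus the highest for Acsl1 and the control refed group for Acsl5. Acsl4 had 96.5 ± 9.02, 90.1 ± 5.77, 74.7 ± 3.70 and 108 ± 16.9 per kb, and Acsl3 84.7 ± 14.5, 71.3 ± 21.2, 69.3 ± 14.8 and 102 ± 22.1. Both were highest on average in control fasted and lowest in knockout fasted livers, and for Acsl3 the knockout fasted libraries (53.6 to 82.9 per kb) lay below all control fasted ones (85.6 to 128), with the refed groups overlapping both. Acsl6, with 1 region, had 72.5 ± 8.23, 45.5 ± 13.2, 47.5 ± 11.1 and 19.8 ± 10.9 per kb.

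**Figure D1:**
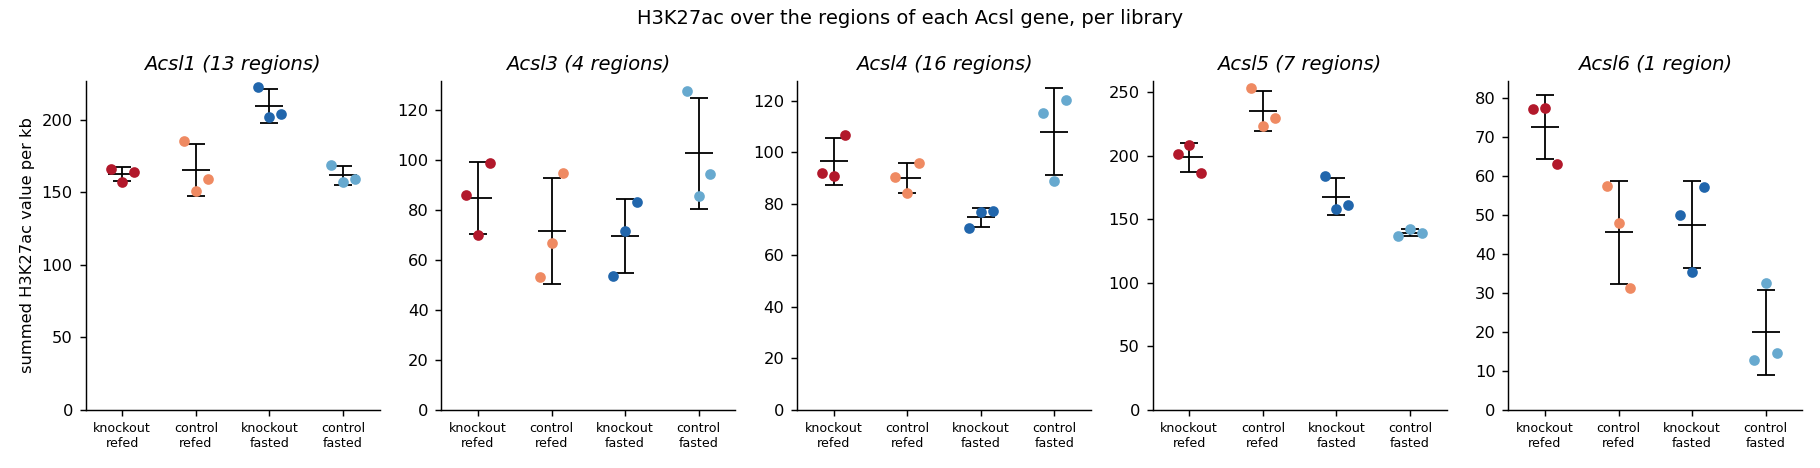
Summed H3K27ac value per kb (y axis, from 0) over the regions of each Acsl gene, 1 panel per gene; points are libraries, bars the mean and SD of 3 mice, for knockout refed, control refed, knockout fasted and control fasted livers. Acsl1 is highest in knockout fasted livers (202 to 223 per kb, against 157 to 169 in control fasted), Acsl5 in control refed livers (223 to 253).

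Refeeding moved H3K27ac at many Acsl regions in both genotypes, and the called changes were more often down than up. By sign alone, 20 changes were positive and 21 negative in knockout livers, and 15 and 26 in control livers. Limma on log2(value + 1) over all 63686 regions, with Benjamini-Hochberg adjustment and a threshold of 0.05, called 14 of 41 Acsl regions between refed and fasted knockout livers (4 higher, 10 lower), where 24.7% of all regions were called (13.3% higher, 11.4% lower). Between refed and fasted control livers it called 20 of 41 (8 higher, 12 lower), against 30.0% of all regions (13.2% higher, 16.8% lower). The median log2 change of the 41 regions was -0.10 in knockout livers and -0.36 in control livers, beside 0.02 and -0.03 over all regions. In all, 7 regions fell and 2 rose in both genotypes, and 5 of the 7 were neighbours upstream of Acsl1. A further 5 fell and 6 rose in control livers only by the threshold, 3 fell and 2 rose in knockout livers only by the threshold, and 16 were not called in either. The shares of all regions in these joint classes were not computed, so the joint counts describe the 41 regions only.

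Few Acsl regions differed past the threshold between knockout and control livers. In refed livers 1 of 41 was called, lower in knockout (2.02% of all regions were called, and 0.297% were called lower), and in fasted livers 2 of 41, 1 higher and 1 lower (0.557% of all regions, 0.312% higher and 0.245% lower). Averaged over both feeding states, 2 were called, both higher in knockout (3.88% of all regions, 2.99% higher). On the authors' scaling 85.3% of the regions called in refed livers were higher in knockout, against 67.7% with median-ratio scaling, and over both feeding states 77.1% against 51.0%. Mostly below the threshold, the fasted knockout livers showed a pattern by gene. All 13 Acsl1 regions and all 7 Acsl5 regions had a positive log2 change against fasted controls, with medians of 0.54 and 0.52, while 13 of 16 Acsl4 regions and all 4 Acsl3 regions had a negative one, with medians of -0.55 and -0.37. The median over all regions was 0.04. Every knockout library lay above every control library at 11 of the 13 Acsl1 regions and 6 of the 7 Acsl5 regions (10.9% of all regions), and below at 6 of the 16 Acsl4 regions (7.15% of all regions). The Acsl1 count was 13 of 13 under each scaling and count test tried, and the Acsl5 count fell to 6 of 7 under median-ratio scaling, quantile normalization, edgeR and DESeq2. The count of negative Acsl3 regions fell to 3 of 4 under edgeR and DESeq2, and that of Acsl4 was 14 of 16 under quantile normalization. Regions of 1 gene share libraries and neighbouring DNA and are not independent. In refed livers the medians were -0.01 for Acsl1, 0.06 for Acsl5, 0.24 for Acsl4 and 0.27 for Acsl3, beside 0.10 over all regions, which quantile normalization put at -0.02.

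**Figure D2:**
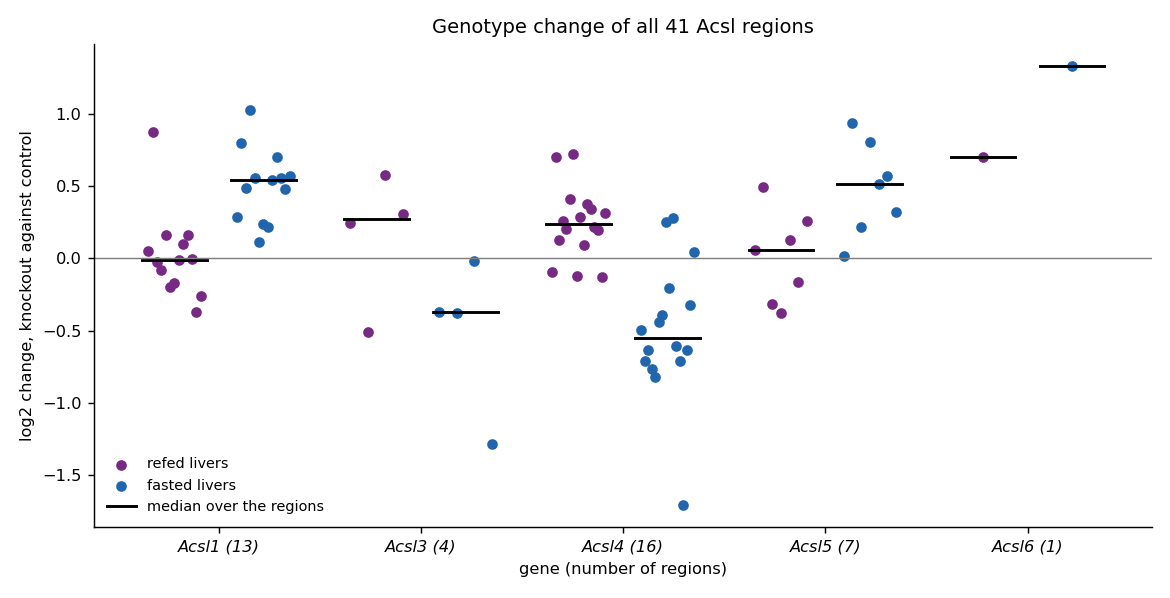
Log2 change of knockout against control livers (y axis) at each of the 41 regions, by gene, in refed (purple, left) and fasted (blue, right) livers; black lines are medians over the regions. In fasted livers all 13 Acsl1 and all 7 Acsl5 points lie above 0 and 13 of 16 Acsl4 points below it, and only 2 of the 41 passed the threshold.

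At Acsl1, refeeding lowered a block of 5 neighbouring intergenic regions, centred -82.9 to -57.0 kb from the upstream start, in both genotypes. All 5 fell in knockout livers, by log2 changes of -2.79 to -0.75, and all 5 in control livers, by -1.76 to -0.51. The widest of them spans 18112 bp at -68.9 kb (chr8:47478426-47496537, mm9). There the values were 1797, 1443 and 2131 in knockout refed livers, against 4065, 3821 and 4106 in knockout fasted livers. In controls they were 2249, 1447 and 1800.1 in refed, against 3099.7, 2791 and 2672 in fasted livers. Every refed library was below every fasted one in both genotypes, and the fasted knockout libraries were the highest of all 12. Over all regions, every refed library was below every fasted one at 19.7% in knockout and 23.3% in control livers. They were above at 22.9% and 19.1%, and these shares stand beside each feeding comparison without overlap below. The fall was -1.18 in knockout (SE 0.14, adjusted p = 3.71e-05) and -0.66 in control livers (SE 0.14, adjusted p = 0.00264; limma, as for all region tests below).

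The region at -57.0 kb (chr8:47497603-47501248) had the smallest adjusted p of the block. It had 111, 93.3 and 156 in knockout refed, against 359, 311 and 336 in knockout fasted livers. Controls had 115, 94.6 and 107 in refed, against 254, 212 and 218 in fasted livers. No refed library reached the lowest fasted one (knockout: log2 change -1.50, SE 0.18, adjusted p = 2.57e-05; control: log2 change -1.11, SE 0.18, adjusted p = 0.000231). At -82.9 kb the fall was -0.75 in knockout (adjusted p = 0.00308) and -0.51 in control livers (adjusted p = 0.0237), and the control call was lost under median-ratio scaling, edgeR and DESeq2, and without control fasted replicate 1 or control refed replicate 2 or 3 (adjusted p up to 0.126). The narrow regions at -78.8 and -59.1 kb held few reads, with values of 1.86 to 57.04, and their log2 changes depend on the added 1. At -78.8 kb the knockout call did not hold on leaving out knockout fasted replicate 1 or 3 or either of knockout refed replicates 1 and 2 (adjusted p up to 0.109), and the control call under quantile normalization and without control fasted replicate 2 or 3 or control refed replicate 2 (up to 0.0833). At -59.1 kb the control call was lost under quantile normalization and without control fasted replicate 3 or control refed replicate 2 (up to 0.160).

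Nearer the gene and within it, 4 Acsl1 regions rose with refeeding in control livers, and none did by the threshold in knockout livers. The largest change was at +22.2 kb of the downstream start (chr8:47595785-47601329, intron), 1 of 2 member regions with a GATA4 ChIP peak of the authors within 500 bp, where 8.31% of all regions have one. Its values were 404, 480.3 and 385 in knockout refed, against 396, 311 and 274 in knockout fasted livers (log2 change 0.38, SE 0.14, adjusted p = 0.0615). Control livers had 494, 551 and 599 refed, against 218, 246 and 232 fasted (log2 change 1.23, SE 0.14, adjusted p = 1.29e-05). In knockout livers 1 fasted library lay among the refed ones, whereas the refed and fasted control libraries did not overlap. In refed livers all 3 knockout libraries were below all 3 controls, as at 6.23% of all regions. In fasted livers they were above the controls, as at 10.9% of all regions. Neither genotype difference passed the limma threshold (refed: log2 change -0.37, SE 0.14, adjusted p = 0.176, and fasted: log2 change 0.48, SE 0.14, adjusted p = 0.150).

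The region over the downstream start (chr8:47566888-47591016, 24129 bp wide, centred at +2.63 kb) carries the other GATA4 peak, centred -5.67 kb from that start. It had 4359, 4298 and 4002 in knockout refed and 4341, 3676 and 3809 in control refed livers. Fasted, it had 4819.7, 4025 and 3384 in knockout and 2998, 2603 and 2723 in control livers. The control fasted libraries were the lowest 3 of the 12, and the other groups overlapped. With refeeding it changed by 0.06 in knockout livers (95% interval -0.16 to 0.29) and rose in control livers (log2 change 0.51, SE 0.11, adjusted p = 0.00200). It was higher in knockout in fasted livers (log2 change 0.54, SE 0.11, adjusted p = 0.0337) and over both feeding states (0.32, adjusted p = 0.0295, lost in 9 of 19 alternatives), while in refed livers the change was 0.10 (95% interval -0.12 to 0.33). The fasted call was lost in 9 of 19 alternatives, among them median-ratio scaling, edgeR, and leaving out knockout fasted replicate 1 or 2, any 1 control fasted library, knockout refed replicate 1 or control refed replicate 3 (adjusted p up to 0.145). The call over both feeding states was lost under median-ratio scaling, edgeR and DESeq2, and on leaving out knockout fasted or knockout refed replicate 1 or 2 or control refed replicate 2 or 3 (adjusted p up to 0.106).

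The region at the upstream start, with the highest mean of the 41 (chr8:47553201-47566752, intron), changed less. It had 3836, 3641 and 3755 in knockout refed and 4146, 3525 and 3685 in control refed livers, against 4681, 4439 and 4382 in knockout fasted and 3878, 3759 and 3968 in control fasted livers. The 3 knockout fasted libraries were the highest of the 12. Refeeding lowered it in knockout livers (log2 change -0.27, SE 0.07, adjusted p = 0.00806) and the control change was -0.03 (95% interval -0.17 to 0.11). At -23.7 and +27.3 kb the refeeding changes in knockout livers were -0.10 and -0.18, not called. Both regions rose in control livers (-23.7 kb: log2 change 0.31, SE 0.08, adjusted p = 0.00701; +27.3 kb: log2 change 0.65, SE 0.19, adjusted p = 0.0152), and at +27.3 kb the call was lost without control fasted replicate 1 or 2 or control refed replicate 2 (adjusted p up to 0.0595). The other regions, at -37.1, +15.6 and +17.8 kb, were called in no comparison. Summed over the gene, Acsl1 changed by -0.37 with refeeding in knockout (SE 0.08, adjusted p = 0.00214 over all 16313 genes) and by 0.03 in control livers (adjusted p = 0.811). In fasted livers the sum was higher in knockout (log2 change 0.37, SE 0.08, adjusted p = 0.0320), a call lost under median-ratio scaling, edgeR, and without knockout fasted replicate 1 or 3, control fasted replicate 1 or 3 or control refed replicate 3 (adjusted p up to 0.166). In refed livers it differed by -0.02. Hepatocyte markers (8 of 8 with regions, none at 0) had a summed level of 169 to 174 per kb in knockout refed and 177 to 195 in control refed livers, against 190.5 to 203 in knockout fasted and 196 to 225 in control fasted livers. With refeeding 4 of the 8 were called lower in knockout livers, and 4 lower and 1 higher in control livers. Of all 16313 genes, 2089 were called lower and 4128 higher in knockout, and 2420 lower and 3600 higher in control livers. The part of the hepatocyte markers in the Acsl1 changes was not tested. The fasted genotype comparison and the feeding comparisons share the fasted libraries.

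**Figure D3:**
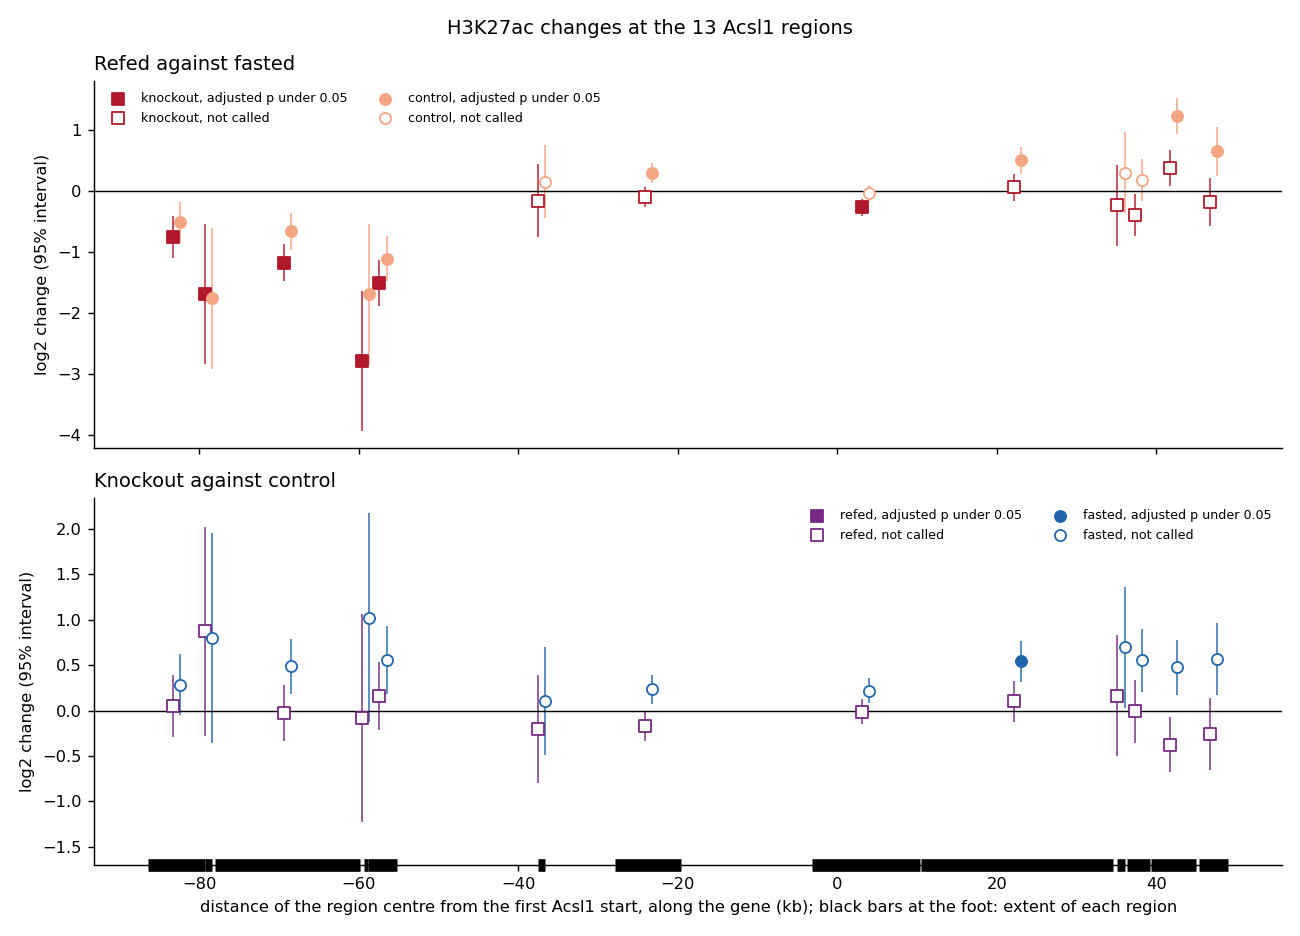
Log2 change with 95% interval (y axis) at the 13 Acsl1 regions by distance from the upstream start in kb (x axis); the upper panel shows refed against fasted in knockout (squares) and control (circles) livers, the lower panel knockout against control in refed (squares) and fasted (circles) livers, with filled symbols past the threshold and black bars for the extent of each region. The 5 regions from -82.9 to -57.0 kb fall with refeeding in both genotypes, and all 13 fasted circles of the lower panel are above 0. Over the gene body, rises with refeeding pass the threshold in control livers only, and limma called no Acsl1 region in the interaction of genotype and feeding.

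The smallest adjusted p of all Acsl regions for feeding was a rise at Acsl5, at the 12570 bp region over its start (chr19:55324529-55337098, intron). The values were 4059.5, 4149.7 and 3697 in knockout refed, against 3256, 2853 and 2932 in knockout fasted livers. Controls had 5368, 4668 and 4807 in refed, against 2600.3, 2631 and 2528 in fasted livers. The 4 groups did not overlap: control refed was highest, then knockout refed, knockout fasted and control fasted. Refeeding raised it by 0.40 in knockout livers (SE 0.07, adjusted p = 0.00106) and by 0.93 in control livers (SE 0.07, adjusted p = 4.27e-07). In refed livers it was lower in knockout than in control (log2 change -0.32, SE 0.07, adjusted p = 0.0386), the 1 genotype call of refed livers, and in fasted livers the change was 0.22 (adjusted p = 0.200). The refed call was lost in 8 of 19 alternatives: quantile normalization, edgeR, and leaving out any 1 knockout refed library, control refed replicate 1 or 3, or knockout fasted replicate 3 (adjusted p up to 0.143).

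Within the Acsl5 gene, regions moved in opposite directions. The region at +14 kb (chr19:55339460-55344316) had 526, 552 and 512 in knockout refed and 494, 475 and 488 in control refed livers, and 536, 362 and 402 in knockout fasted and 221, 342 and 352 in control fasted livers. In knockout livers, where 1 fasted library lay within the refed range, the refeeding change was 0.31 (adjusted p = 0.198), and in control livers, where the groups did not overlap, it rose (log2 change 0.70, SE 0.17, adjusted p = 0.00530). At +23.3 kb (chr19:55349436-55352816) the values were 127, 167 and 147 in knockout refed, against 445, 389.6 and 376 in knockout fasted livers. Controls had 137, 110.4 and 119.9 refed, against 331, 303 and 333 fasted. All refed libraries lay far below all fasted ones, and the change was -1.45 in knockout (adjusted p = 4.62e-06) and -1.39 in control livers (adjusted p = 3.86e-06), with a difference of -0.06 between genotypes (95% interval -0.48 to 0.36). Both calls held in all 19 alternatives. The small regions at +21.2 and +11.2 kb, with few reads, fell in knockout livers (-1.44, adjusted p = 0.00547, and -1.06, adjusted p = 0.0420). The second call was lost without any 1 knockout fasted library, knockout refed replicate 1 or control refed replicate 3. In controls neither was called. At +21.2 kb the control refed libraries (17.6, 11.1 and 22.2) were also below the fasted ones (28.4, 23.9 and 29.8), and at +11.2 kb the control groups overlapped. The regions at -5.36 and -4.04 kb were not called.

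Summed over its regions, Acsl5 rose with refeeding in knockout livers (log2 change 0.25, SE 0.07, adjusted p = 0.0169) and in control livers (log2 change 0.75, SE 0.07, adjusted p = 3.54e-06). The median gene rose by 0.12 and 0.08 in these comparisons on the authors' scaling and by 0.01 and 0.00 with median-ratio scaling, and relative to the median gene the Acsl5 changes were 0.13 and 0.67. The knockout call was lost under median-ratio scaling, under edgeR, and on leaving out either of knockout fasted replicates 2 and 3 or of knockout refed replicates 1 and 2 (adjusted p up to 0.232). The control call held in all 17 alternatives. Cholangiocyte markers moved the same way, and 5 of 8 had regions (Krt19, Krt7 and Cftr had none). All 5 were called higher in both genotypes, where 4128 of all 16313 genes were called higher in knockout and 3600 in control livers. Their summed level was 121 to 135 per kb in knockout refed and 109.7 to 139 in control refed livers. Fasted, it was 76.2 to 102 in knockout and 71.8 to 85.5 in control livers, and no marker was at 0. Stellate markers also had higher levels, with 59.8 to 69.1 per kb in knockout refed, against 54.1 to 55.9 in knockout fasted livers. In controls they had 73.2 to 74.7 refed, against 60.6 to 69.3 fasted. Kupffer cell and macrophage markers had 63.0 to 77.7 against 52.1 to 55.5 in knockout livers, and overlapped in controls. Hepatocyte markers were lower in refed livers, and endothelial and lymphocyte markers overlapped. The part of these cells in the Acsl5 result was not tested.

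**Figure D4:**
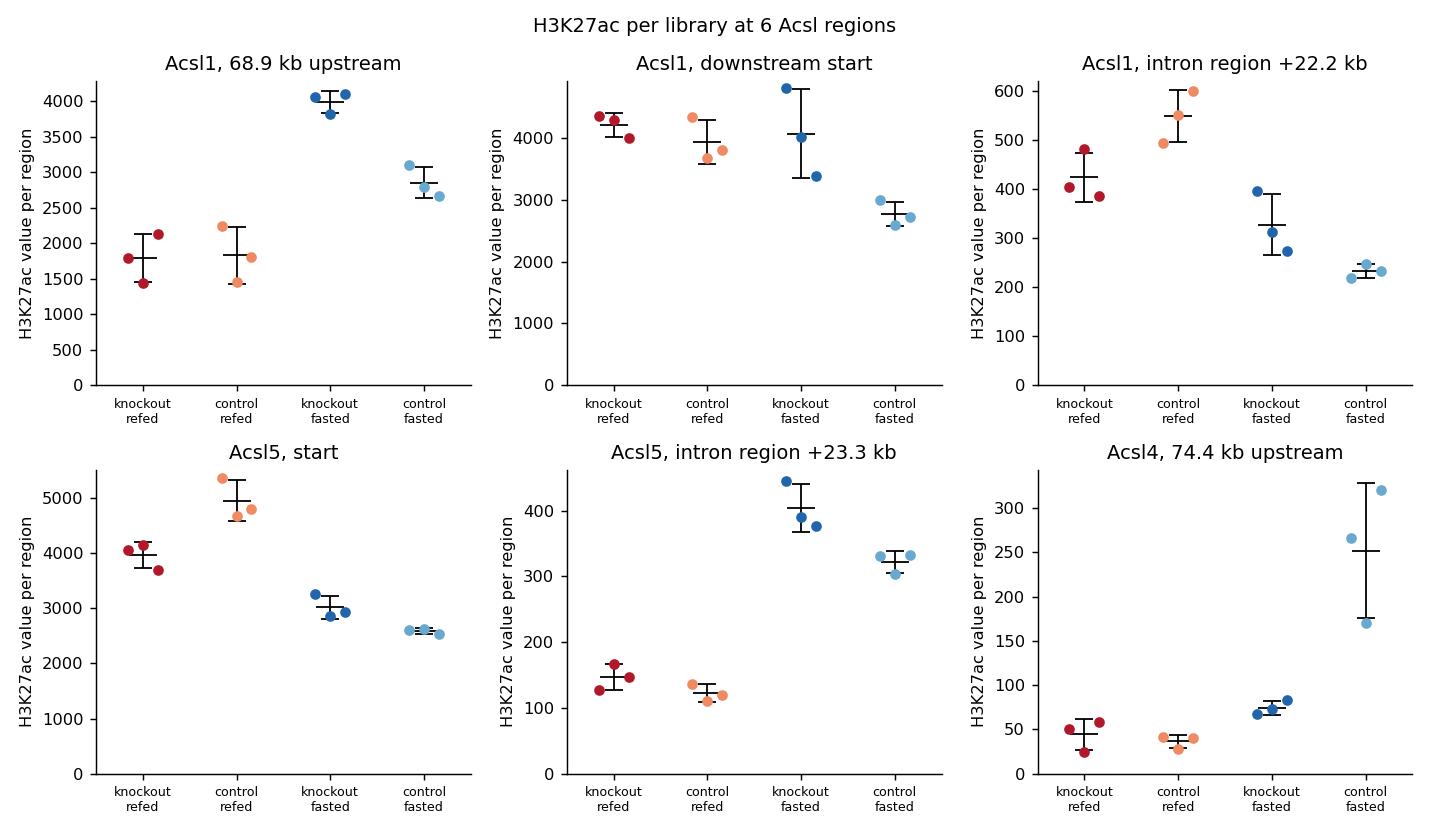
Deposited H3K27ac value per region (y axis, from 0) in each library at 6 Acsl regions; points are libraries and bars the mean and SD of 3 mice, for knockout refed, control refed, knockout fasted and control fasted livers. The Acsl5 start has 4 groups that do not overlap, the Acsl5 region at +23.3 kb and the Acsl1 region at -68.9 kb are lower in all refed than in all fasted libraries of the same genotype, and the Acsl4 region at -74.4 kb is highest in control fasted livers (170.0 to 320.2).

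Acsl3 had 4 intergenic regions, all upstream, with a combined length of 6.204 kb. Its start lies in a region that the table gives to Utp14b (chr1:78651981-78658358), named here after its values were seen. At that region refed livers were higher than fasted ones in knockout (log2 change 0.60, SE 0.11, adjusted p = 0.000730) and in control (log2 change 0.54, SE 0.11, adjusted p = 0.00126), and it is outside the counts above. Of the member regions, that at -55.6 kb had 10.1, 19.3 and 9.69 in knockout refed, against 26.1, 41.8 and 51.8 in knockout fasted livers. Controls had 13.4, 17.6 and 24.9 refed, against 60.4, 34.9 and 59.7 fasted. The refed libraries were below the fasted ones in both genotypes, at few reads (knockout: log2 change -1.55, SE 0.39, adjusted p = 0.00946; control: log2 change -1.42, SE 0.39, adjusted p = 0.0126). These calls were lost without knockout fasted replicate 3, and without control fasted or control refed replicate 1 (adjusted p up to 0.0513). The region at -48.4 kb fell in control livers (log2 change -1.10, SE 0.33, adjusted p = 0.0186), with 14.2, 23.2 and 24.9 in refed and 44.8, 42.3 and 45.9 in fasted livers, and the call was lost without control refed replicate 1 (adjusted p = 0.0772). In knockout livers it changed by -0.50 (adjusted p = 0.286).

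Nearest the gene, the Acsl3 region at -8.12 kb varied widely within groups. It had 148, 84.2 and 252 in knockout refed and 79.4, 101 and 208 in control refed livers, against 60.3, 82.5 and 77.1 in knockout fasted and 268, 179 and 118 in control fasted livers. Knockout fasted libraries were all below control fasted ones, and the refed groups overlapped each other. The fasted difference was not called (log2 change -1.28, SE 0.39, adjusted p = 0.162); in the authors' deposited table it is listed with an FDR of 0.00109, and DESeq2 called it too (adjusted p = 0.0368). The region at -70.3 kb, with the highest mean of the 4, had 342, 294 and 325 in knockout refed and 221, 271 and 329 in control refed livers, and 218, 266 and 329.6 in knockout fasted and 418, 275 and 360.4 in control fasted livers. Its groups overlapped and it was called in no comparison. The Acsl3 sum, which leaves out the region over the start, was called in no comparison (control refed against fasted: log2 change -0.54, SE 0.22, adjusted p = 0.0631).

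Acsl4 had a region over its start and 14 intergenic regions between -130.5 and -65.8 kb, the most upstream regions of the 5 genes, and 1 in its first intron at +20.1 kb. The start and the upstream regions moved apart with refeeding in control livers: the start rose, and 4 upstream regions fell. The start region (chrX:138822066-138826382) had 879.6, 905 and 945 in knockout refed, against 675, 599 and 626 in knockout fasted livers. Controls had 933, 1050.3 and 1011 refed, against 863, 701 and 818 fasted. Refed libraries were above fasted ones in both genotypes (knockout: log2 change 0.52, SE 0.10, adjusted p = 0.00103; control: log2 change 0.33, SE 0.10, adjusted p = 0.0155). The control call was lost without control fasted replicate 2 or control refed replicate 2 or 3 (adjusted p up to 0.0763).

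The region at -74.4 kb (chrX:138898189-138900681) had the largest fall of any member in controls. Its values were 50.6, 25.04 and 58.1 in knockout refed and 40.95, 27.8 and 40.8 in control refed livers. Fasted, they were 67.3, 72.6 and 83.4 in knockout and 266, 170.0 and 320.2 in control livers. The control fasted libraries were the highest 3 of the 12, and the knockout fasted ones lay between them and the refed ones, which overlapped. With refeeding it changed by -0.81 in knockout livers (adjusted p = 0.0679) and by -2.73 in control livers (SE 0.31, adjusted p = 1.08e-05), the second held in all 19 alternatives. In fasted livers knockout was lower (log2 change -1.70, SE 0.31, adjusted p = 0.0245), the 1 lower genotype call of fasted livers. That call was lost only when knockout fasted replicate 1 or 3 or control fasted replicate 1 or 3 was left out (adjusted p up to 0.113), and the authors' deposited table lists the region with an FDR of 2.92e-08. In refed livers the change was 0.22 (95% interval -0.44 to 0.87).

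Another 3 upstream Acsl4 regions fell with refeeding in controls, at -77.5 kb (log2 change -2.06, SE 0.41, adjusted p = 0.00153), -87.8 kb (log2 change -0.61, SE 0.15, adjusted p = 0.00728) and -65.8 kb (log2 change -1.36, SE 0.42, adjusted p = 0.0225). The changes at these in knockout livers were -1.01, 0.37 and -0.53, none called. The call at -65.8 kb was lost under quantile normalization and without control fasted replicate 1 or 3 or control refed replicate 2 or 3 (adjusted p up to 0.0794). In knockout livers 2 regions farther out rose with refeeding, at -117 kb (log2 change 0.83, SE 0.22, adjusted p = 0.0116) and -126 kb (log2 change 0.62, SE 0.17, adjusted p = 0.0149), where the control changes were -0.20 and -0.15. At -117 kb knockout livers had 157, 156 and 174 refed, against 81.4, 99.1 and 94.01 fasted, and controls 155, 99.3 and 181 refed, against 182, 124 and 188 fasted. The fasted knockout libraries were the lowest 3 of the 12, just below control refed replicate 2. The call at -126 kb did not hold on leaving out knockout fasted replicate 1, nor on leaving out knockout refed replicate 3 (adjusted p up to 0.0731).

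The Acsl4 sum was lower in knockout than in control fasted livers (log2 change -0.52, SE 0.10, adjusted p = 0.0293), and in refed livers it differed by 0.10 (adjusted p = 0.702). Control fasted replicate 2 was the lowest of its group, at 2491 against 3233 and 3379 in the other two, and still above the knockout fasted libraries, at 1979, 2153 and 2164. The call was lost under median-ratio scaling, edgeR, and without knockout fasted replicate 1 or 3 or control fasted replicate 1 or 3 (adjusted p up to 0.151). With refeeding the sum rose in knockout livers (log2 change 0.37, SE 0.10, adjusted p = 0.0137, or 0.25 relative to the median gene), a call lost under median-ratio scaling, under edgeR, and on leaving out knockout fasted replicate 1 or knockout refed replicate 3, and in control livers it changed by -0.25 (adjusted p = 0.0736). Markers of some other liver cells had lower summed levels in knockout fasted than in control fasted livers. Those of stellate cells (8 of 8 with regions) had 54.1 to 55.9 per kb in knockout fasted, against 60.6 to 69.3 in control fasted livers. Kupffer cell and macrophage markers (4 with regions; Cd68, Marco, Timd4 and Vsig4 had none) had 52.1 to 55.5 against 58.3 to 72.4 per kb, and liver endothelial markers (8 of 8) 71.2 to 77.3 against 77.5 to 85.3. Cholangiocyte markers (5 with regions) averaged higher in knockout fasted livers, at 76.2 to 102 against 71.8 to 85.5 per kb. Lymphocyte markers (3 with regions) had 82.7 to 89.8 against 84.5 to 98.03, and for both lists the groups overlapped. None was at 0, no single marker was called in this comparison, and the part of these cells in the Acsl4 result was not tested.

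**Figure D5:**
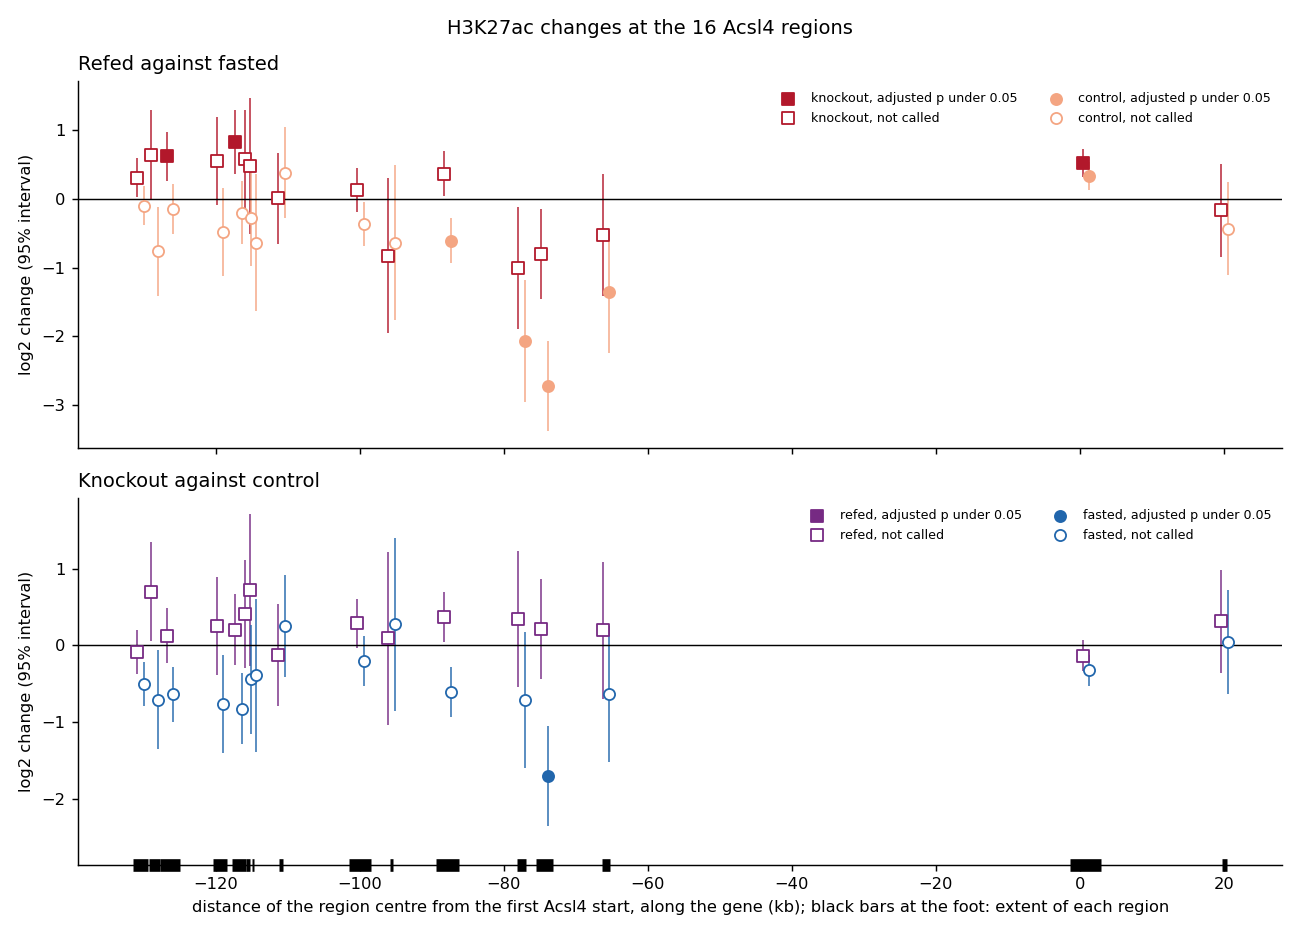
Log2 change with 95% interval (y axis) at the 16 Acsl4 regions by distance from the start in kb (x axis, negative upstream); upper panel, refed against fasted in knockout (squares) and control (circles) livers; lower panel, knockout against control in refed (squares) and fasted (circles) livers, filled past the threshold, with black bars for the extent of each region. The control circle at -74.4 kb is the lowest of the upper panel (-2.73), and both symbols at the start lie above 0 there.

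Acsl6 had 1 region, in an intron 25.4 kb from the nearest of its annotated starts (chr11:54153051-54154639), with low values. They were 123, 123 and 100.1 in knockout refed and 91.1, 76.1 and 49.7 in control refed livers. Fasted, they were 79.4, 56.1 and 90.8 in knockout and 20.1, 51.5 and 22.95 in control livers. Every knockout library was above every control library in each feeding state. Taken singly, this held at 17.6% of all regions in refed and 10.9% in fasted livers. Knockout was higher over both feeding states (log2 change 1.02, SE 0.23, adjusted p = 0.0276), lost under quantile normalization and without knockout fasted or control fasted replicate 1 or 3, knockout refed replicate 1 or 2 or control refed replicate 3 (adjusted p up to 0.0673). Within fasted livers the change was 1.33 (adjusted p = 0.0863) and within refed livers 0.70 (adjusted p = 0.274). With refeeding it changed by 0.63 in knockout livers (adjusted p = 0.182) and rose in control livers (log2 change 1.25, SE 0.33, adjusted p = 0.00888), in all 19 alternatives, although control refed replicate 3 lay below control fasted replicate 2. The cholangiocyte and stellate markers given above moved the same way with refeeding. Neuronal markers (4 of 5 with regions, Tubb3 without) had 145 to 172 per kb in knockout refed and 162 to 169 in control refed livers. Fasted, they had 125 to 157 in knockout and 112 to 144 in control livers, none at 0. The part of these cell types was not tested.

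Whether the feeding response differed between genotypes was tested directly as an interaction, in which a negative value means a smaller rise or a larger fall in knockout. None of the 41 regions was called by limma (0.0236% of all regions were), and edgeR called 0. DESeq2 on the recovered reads called 4 of the 41, and it called 509 of all regions, against 15 by limma. The lowest adjusted p of limma was at the Acsl5 start (log2 change -0.54, SE 0.10, adjusted p = 0.0735). DESeq2 called this region (log2 change -0.60, adjusted p = 0.00969), the Acsl1 region at +22.2 kb (-0.93, adjusted p = 0.00433), and the Acsl4 regions at -74.4 kb (1.99, adjusted p = 0.00514) and -87.8 kb (0.92, adjusted p = 0.0326). The authors' deposited interaction table lists 5 Acsl regions among 972 in all. They are the same 4, with FDR values of 0.000190, 0.00441, 0.000513 and 0.00263 in that order, and the Acsl1 region at -23.7 kb (0.0182). The limma values at these were -0.85, 1.92, 0.98 and -0.41 for the Acsl1 region at +22.2 kb, the Acsl4 pair and the Acsl1 region at -23.7 kb, with adjusted p of 0.161, 0.144, 0.139 and 0.216. Of 13 Acsl1 regions 12 had a negative interaction and of 16 Acsl4 regions 14 a positive one, with medians of -0.44 and 0.84 beside 0.06 over all regions. The interaction is the refed genotype change minus the fasted one. These signs therefore share libraries with the fasted pattern by gene and are not a separate result.

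The authors' deposited genotype tables hold 6 Acsl regions among 2021 in all for fasted livers, and 2 among 4200 for refed livers. Limma called fewer Acsl regions here, and also fewer of all regions, 355 in fasted and 1289 in refed livers. The Acsl1 region over the downstream start, the 1 higher limma call of fasted livers, is not among the 6. Beside the Acsl4 region at -74.4 kb and the Acsl3 region at -8.12 kb, the authors' deposited table for fasted livers lists the Acsl4 regions at -87.8 kb (FDR 0.0205) and -117 kb (FDR 0.00954), the Acsl6 region (FDR 0.0156) and the Acsl1 region at -59.1 kb (FDR 0.0442). The authors' deposited table for refed livers lists the Acsl5 start (FDR 0.0442) and the Acsl1 region at +22.2 kb (FDR 0.0331). The authors' deposited table for genotype lists the Acsl4 region at -74.4 kb (FDR 0.00932) among 301 regions, with a fold whose direction is not stated. For feeding in controls, 19 Acsl regions have an adjusted p under 0.05 in the authors' deposited table, where 20390 regions are listed.

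Other genes of acyl-CoA metabolism were read from the sums over their regions, where limma called 38.1% of 16313 genes with refeeding in knockout livers and 36.9% in control livers, and between genotypes 1.27% in refed livers, 1.31% in fasted livers and 4.06% over both feeding states. By this measure 3 of the 5 Acsl genes were called with refeeding in knockout (Acsl4 and Acsl5 higher, Acsl1 lower), 2 in control livers (Acsl5 and Acsl6 higher), 2 between genotypes in fasted livers (Acsl1 higher, Acsl4 lower) and Acsl6 over both feeding states. With median-ratio scaling 46.7% of the genes called in control livers were higher with refeeding, against 59.8% on the authors' scaling. Of 16 other acyl-CoA synthetases, 2 rose and 3 fell with refeeding in knockout livers, and 3 rose and 4 fell in controls, with median log2 changes of -0.02 and -0.05 beside 0.12 and 0.08 over all genes. Acss2, which makes acetyl-CoA from acetate, rose by 1.25 in knockout (adjusted p = 7.50e-06) and 1.40 in control livers (adjusted p = 1.90e-06). Aacs, which activates acetoacetate, rose by 1.03 and 1.06 in knockout and control livers, and Slc27a2, a very long-chain acyl-CoA synthetase of peroxisomes, changed by -0.72 and -0.84. None of the 16 was called between genotypes within a feeding state. Of 14 acyl-CoA thioesterases, which split acyl-CoA again, 3 rose and 4 fell in each genotype (medians -0.30 in knockout and -0.10 in control livers). Acot1 changed by -1.11 in knockout (adjusted p = 0.00118) and -1.34 in control livers (adjusted p = 0.000223), and Acot7 rose by 0.62 and 0.88. Over both feeding states Acot1 was higher in knockout (0.57, adjusted p = 0.0497).

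Genes that carry acyl-CoA into mitochondria and peroxisomes were called in 1 direction with refeeding: of 8 measured, 5 fell in knockout and 4 in control livers, and none rose (medians -0.38 and -0.19). Cpt1a, the entry enzyme of mitochondrial oxidation, changed by -0.76 in knockout (adjusted p = 0.000631) and -0.68 in control livers (adjusted p = 0.00119), and Slc25a20, the carnitine-acylcarnitine carrier, changed by -0.55 in controls (adjusted p = 0.000447). The Slc25a20 sum was also lower in refed knockout livers, at 680 ± 70.9 against 930 ± 79.9 fasted (SD, n = 3 each). In controls it was 600 ± 40.5 refed and 880 ± 39.5 fasted. Crat, carnitine acetyltransferase, was the 1 gene of this list called between genotypes within a feeding state, higher in fasted knockout livers (0.43, SE 0.08, adjusted p = 0.0203). Of 12 genes of fatty acid uptake and acyl-CoA binding, 3 rose and 3 fell in knockout and 5 rose and 2 fell in control livers (medians 0.00 and 0.07). Fabp5, a fatty acid binding protein, rose by 1.14 in knockout (adjusted p = 6.53e-06) and 1.79 in control livers (adjusted p = 1.02e-07). It was lower in knockout refed livers, with a sum of 1149.6 ± 94.1 against 1758 ± 121 in control refed livers (SD, n = 3 each; limma log2 change -0.61, adjusted p = 0.0238). Of 15 genes that put acyl-CoA into glycerolipids, 2 rose and 4 fell in knockout and 2 rose and 3 fell in control livers (medians 0.03 and -0.03). Agpat9, an older symbol of the acyltransferase gene Gpat3, changed by -0.91 in knockout (adjusted p = 4.79e-05) and -1.48 in control livers (adjusted p = 5.94e-07), and was higher in knockout refed livers (0.71, adjusted p = 0.0172). Gpam, the mitochondrial glycerol-phosphate acyltransferase, changed by -0.55 in knockout livers (adjusted p = 0.000225). Its sum in control livers was 12489 ± 664 refed and 14645 ± 1827 fasted, beside 11412 ± 436 and 16687 ± 763 in knockout livers. Over both feeding states Crat (0.24), Agpat9 (0.42) and Gpat4 (0.27) were higher in knockout (adjusted p = 0.0295, 0.0148 and 0.0243).

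Across the 12 libraries the summed level of Acsl5 was most like those of Pard3, Hyi and Zmiz1 (Pearson r of log2 sums 0.99, 0.97 and 0.97, among 8157 genes at or above the median level). For Acsl1 they were Lrp1, Etfa and Helt (0.97, 0.92 and 0.90), and the Helt regions lie on the same chromosome, 6.22 kb from the nearest Acsl1 region. For Acsl4 they were Ptprj, Actr6 and Tdrd7 (0.92, 0.86 and 0.85), for Acsl6 Arid3a, Capza3 and Spsb4 (0.92, 0.92 and 0.91), and for Acsl3 Mynn, 4930443O20Rik and 4930506A18Rik (0.79, 0.76 and 0.74). These are descriptions over 4 groups of 3 libraries, which share depth and group differences.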

How the data were processed

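H3K27ac ChIP-seq was read from 12 libraries of mouse liver, 3 mice in each of 4 groups; the 12 input libraries were not analysed here. Per the file headers, HOMER gave each region its nearest gene. The submitters' processing notes also name bedtools, Bowtie2, deepTools, DiffBind, edgeR, FastQC, MACS2, SAMtools and Trim Galore, with mm9 as the genome; the sources used here give no versions or parameters. The deposited signal per region is a read count divided by 1 factor per library: 100% of 764232 values were whole reads within 0.01. The authors' deposited comparison tables give FDR values, used here as p-values adjusted by the authors, and log2 fold values, whose direction one table does not state. PCR reads are not independent molecules, so read numbers overstate the counting precision.

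The 41 regions, the marker lists and the pathway lists were chosen with earlier results of these data known. Limma 3.58.1 (R 4.3.3) was fitted to log2(signal + 1) over all 63686 regions and 4 groups, with trended moderation and Benjamini-Hochberg adjustment at 0.05, for 6 contrasts, and again to the sum of regions of each of 16313 genes. A fold change on this scale understates change at low values. Alternatives were median-ratio scaling, quantile normalization, a pseudocount of 5 or 0.5, dropping the lowest 25% of mean values, the recovered reads in edgeR 4.0.16 and DESeq2 1.42.0, and dropping each library in turn. Scripts were tested on simulated data. Any Acsl region could be named; per gene, the region with the highest mean, that nearest the start and up to 4 with the smallest adjusted p were given in full. Of each pathway list, up to 3 genes with the smallest adjusted p in a contrast were named, and of the genes most alike, the 3 with the highest Pearson correlation. Promoter sequences are from RefSeq GRCm38.p6, found by gene symbol for 5 of 5 genes; no coordinates were moved between builds.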

Additional observations from a re-analysis of the deposited data

How the results depend on the processing

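The 47 called changes of Acsl regions and gene sums gave 868 values over the alternatives. None reversed, 108 fell short of the threshold, and 25 of the 47 never did. The number of Acsl regions called between knockout and control fasted livers (2) was 1 with median-ratio scaling, 1 with edgeR and 7 with DESeq2. In refed livers (1) it was 0 with quantile normalization, 0 with edgeR and 2 with DESeq2. The interaction (0) had 4 with DESeq2, and the comparison over both feeding states (2) had 4, 1 higher and 3 lower. With 1 library left out these 4 counts ranged from 0 to 4, 0 to 1, 0 to 0 and 0 to 4, and the region counts for feeding from 11 to 15 in knockout and from 14 to 21 in control livers. DESeq2 also called more of all regions than limma, 1178 against 355 in fasted livers and 2722 against 1289 in refed livers. Over both feeding states it called 5086 against 2473. Median-ratio scaling and edgeR called fewer of all regions in fasted livers than limma on the authors' scaling. In refed livers quantile normalization and edgeR did so.

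Of the 5 gene sums, the 2 called in fasted livers became 0 with median-ratio scaling and 0 with edgeR. The 3 called for feeding in knockout livers became 1 with median-ratio scaling and 1 with edgeR, and the 2 in control livers became 1 without the lowest 25% of values and 4 with median-ratio scaling. The 1 over both feeding states became 0 without the lowest 25% and 2 with quantile normalization. With 1 library left out the ranges were 0 to 3 in fasted and 0 to 0 in refed livers, 2 to 3 and 2 to 4 for feeding in knockout and control livers, 0 to 1 for the interaction and 0 to 2 over both states. Leaving out the lowest 25% removes the Acsl6 sum and 9 of the 41 member regions from the tests, 4 of them among the called ones; the cause of the other changes was not tested.

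No paired analysis was possible because the labels give the mice no replicate numbers shared between groups. Mice of a group share the number in their titles, and whether it marks a cage or litter is not stated, so group and any shared cage cannot be told apart. Regions with values under about 60 rest on few reads, and differences there were detectable only when large.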
